A study of Mus musculus with 18 samples.

Results

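De novo lipogenesis, the making of fatty acids from carbohydrate, was followed in mouse liver through 10 genes chosen by name for their known place in the pathway: Srebf1, Mlxipl, Acly, Acaca, Acacb, Fasn, Scd1, Elovl6, Thrsp and Me1. They were 10 of the 19057 genes in the expression table, and all 10 were among the 10507 genes with enough signal to be tested. Their expression was measured by RNA-seq in 18 livers, 3 from each of 6 groups of mice, and is given as RPKM, reads scaled to gene length and to the number of mapped reads.

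All mice were 10 weeks old ICR males. Con mice ate regular diet and received saline. AOS mice ate regular diet and received alginate oligosaccharide, a short sugar chain cut from brown seaweed, at 10 mg/kg. HFD mice ate a high-fat diet with saline, and HFD+AOS mice ate the high-fat diet with alginate oligosaccharide at 10 mg/kg. Con-FMT and A10-FMT mice ate the high-fat diet and received gut content of donor mice by mouth, from control donors in Con-FMT and from donors dosed with alginate oligosaccharide at 10 mg/kg in A10-FMT. The content of the donors was pooled within each donor group, so the recipients of a group shared 1 inoculum. The study asked whether the altered gut content eased effects of the high-fat diet on male mice, and the liver was read for its lipid metabolism. Whether the livers within a group came from separate cages or litters was not stated, and p-values measure only the spread between these livers.

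Liver turns surplus carbohydrate into fat by exporting citrate from mitochondria, cutting it to acetyl-CoA, building malonyl-CoA from it and joining malonyl-CoA units into palmitate, which is then lengthened and desaturated. Insulin drives the pathway through the transcription factor SREBP-1c and glucose drives it through ChREBP, while fasting and dietary fat, polyunsaturated fat above all, lower it. In the gene order used here Srebf1 (SREBP-1) and Mlxipl (ChREBP) are the regulators, Acly, Acaca, Acacb, Fasn and Me1 serve synthesis, Elovl6 and Scd1 modify the product, and Thrsp encodes Spot 14, a small nuclear and cytosolic protein tied to lipogenic tissue.

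Promoter sequence is shown for the synthase and for the regulators, because the group means of Fasn and of Srebf1 followed different orders. RefSeq start sites on GRCm38.p6, the same coordinates as the mm10 build of the submitters' processing notes, gave 13 promoters for 9 of the 10 genes, Scd1 being the gene without an entry. The 250 bases before each start were searched on both strands for CCAAT, the GC box GGGCGG, the E-box CACGTG and the sterol response element TCACNCCAC. The lines below run 5′ to 3′ along the gene's own strand and end just before the start, with matches on either strand in capitals.
Fasn, minus strand, chr11:120824548-120824797: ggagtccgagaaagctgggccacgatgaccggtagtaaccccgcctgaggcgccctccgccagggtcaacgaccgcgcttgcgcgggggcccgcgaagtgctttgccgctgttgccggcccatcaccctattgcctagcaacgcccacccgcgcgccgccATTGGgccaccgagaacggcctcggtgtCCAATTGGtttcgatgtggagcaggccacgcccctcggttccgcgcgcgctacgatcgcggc
Srebf1, minus strand, chr11:60222582-60222831: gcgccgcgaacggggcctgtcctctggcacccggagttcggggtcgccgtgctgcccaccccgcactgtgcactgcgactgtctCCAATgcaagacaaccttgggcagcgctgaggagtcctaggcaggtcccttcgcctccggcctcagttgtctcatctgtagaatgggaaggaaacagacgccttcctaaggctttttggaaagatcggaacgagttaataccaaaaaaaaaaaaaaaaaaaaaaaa
Mlxipl, plus strand, chr5:135089640-135089889: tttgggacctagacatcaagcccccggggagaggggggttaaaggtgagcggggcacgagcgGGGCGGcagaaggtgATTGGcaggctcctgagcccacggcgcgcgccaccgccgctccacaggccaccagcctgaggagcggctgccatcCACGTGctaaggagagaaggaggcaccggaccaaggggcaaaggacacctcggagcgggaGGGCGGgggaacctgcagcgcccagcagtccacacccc
The Fasn window held 3 CCAAT matches, of which 2 overlap in one palindromic stretch. The Srebf1 window, the outermost of its 3 listed promoters, held 1 CCAAT match. Which of the 3 serves the SREBP-1c transcript was not assigned, so the printed window should not be read as the SREBP-1c promoter. Of the Srebf1 promoters not printed, the second held 2 GC boxes and the third held 1 CCAAT match and 2 GC boxes. The Mlxipl window, one of 2, held a CCAAT match, 2 GC boxes and the only E-box found in the 9 genes. Counted per window, CCAAT was in 7 of the 13 and in 33.8% of all 32851 RefSeq promoter windows, the GC box in 5 of 13 and in 32.7%, the E-box in 1 of 13 and in 6.02%, and the sterol element in 1 of 13 (the other Mlxipl promoter) and in 1.05%. These are letter matches only, and a window without a match says nothing about the factors that act on the gene.

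GENCODE M21 (GRCm38) places Fasn on the minus strand of chromosome 11 at 120805846 to 120824547, Srebf1 on the same strand at 60199089 to 60222581, Acly at 100476353 to 100528000 and Acaca, on the plus strand of chromosome 11, at 84129672 to 84401651. Mlxipl and Acacb lie on the plus strand of chromosome 5, at 135089890 to 135138382 and 114146535 to 114250761. Scd1 lies on chromosome 19 at 44394455 to 44407879 (minus), Elovl6 on chromosome 3 at 129532355 to 129638495 (plus), Thrsp on chromosome 7 at 97412938 to 97417730 (minus) and Me1 on chromosome 9 at 86581371 to 86695953 (minus). All 10 are protein-coding, and each value is summed over the whole gene, so the SREBP-1a and SREBP-1c transcripts of Srebf1 are not separated.

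Hepatocyte genes were abundant, with Alb at 24367 to 41363 RPKM in the 18 livers. Depth was not given. In 57 genes whose low values lay near whole multiples of 1 step, the RPKM worth of 1 read was 0.984 to 1.02 of its median over the libraries, a choice of genes that itself favours like steps. Con replicate 3 and AOS replicate 3 stood apart. Of the 148 and 142 genes that separated the first and second livers of Con and of AOS, 98.0% and 96.5% had the third liver between them, as did all 10 lipogenic genes in both groups. A weighted mean of the first and second livers matched the third to a median of 0.0665 and 0.0830 log2 units, against 0.341 to 1.08 for the other libraries. Counts of called genes by diet, in HFD against Con and in AOS against Con are therefore given with and without those livers. Exocrine pancreas genes other than Cela1 were at 0.73 RPKM or less. Adipocyte genes summed to 8.26 to 16.3 RPKM in every liver but A10-FMT replicate 1, where they summed to 58.5 RPKM and Adipoq stood at 4.42 RPKM. In whole liver, fewer cells of a type and less RNA per cell cannot be told apart.

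Most of the lipogenic genes were lower on the high-fat diet. Comparing the mean of the 4 high-fat groups with the mean of the 2 regular-diet groups, 7 of the 10 genes passed at an adjusted p under 0.05 (limma on log2(RPKM + 1), Benjamini-Hochberg over all genes tested), where 12.9% of all tested genes did. Acacb, Me1, Fasn, Elovl6, Scd1 and Mlxipl, 6 genes in all, fell, against 5.74% of genes tested, and Srebf1 rose, against 7.16%. The median log2 fold change of the 10 genes was −0.66, and that of all genes tested was 0.01. The groups pooled here differ in AOS and in transplant as well as in diet.

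Scd1, the desaturase that turns stearate and palmitate into oleate and palmitoleate, changed most. Scd1 stood at 676, 815 and 740.04 RPKM in the Con livers and at 2033, 895 and 1328 RPKM in the AOS livers. On the high-fat diet its values were 19.3, 177 and 215 RPKM in HFD, 538, 48.1 and 304 RPKM in HFD+AOS, 163, 26.7 and 99.2 RPKM in Con-FMT and 45.5, 57.5 and 216 RPKM in A10-FMT. Every high-fat liver was below every regular-diet liver, the highest being HFD+AOS replicate 1 at 538 RPKM and the lowest Con replicate 1 at 676 RPKM. The mean over the high-fat groups was 0.147 times that over the regular-diet groups, a log2 difference of −3.26 ± 0.58 (SE, adjusted p = 0.00188, limma). Within the high-fat livers Scd1 ranged from 19.3 to 538 RPKM, with a median of 131 RPKM. By group mean the order was AOS (1419 RPKM), Con (744), HFD+AOS (296), HFD (137), A10-FMT (106) and Con-FMT (96.5), and the ranges of the last 4 groups overlapped one another. Its near copy Scd2 was at 0.53 to 1.12 RPKM in all livers.

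Acacb encodes the acetyl-CoA carboxylase at the mitochondrial surface, whose malonyl-CoA restrains fatty acid oxidation. Acacb stood at 9.94, 16.8 and 13.1 RPKM in the Con livers and at 16.3, 13.9 and 14.1 RPKM in the AOS livers. The high-fat livers held 2.21, 9.37 and 8.62 RPKM in HFD, 4.81, 1.82 and 9.92 RPKM in HFD+AOS, 4.03, 2.27 and 2.98 RPKM in Con-FMT and 1.32, 2.63 and 3.73 RPKM in A10-FMT. No high-fat liver reached a regular-diet liver, although HFD+AOS replicate 3 at 9.92 RPKM came next to Con replicate 1 at 9.94 RPKM. The log2 difference was −1.63 ± 0.28 (SE, adjusted p = 0.00134, limma). Con-FMT and A10-FMT held the lowest group means, 3.09 ± 0.89 and 2.56 ± 1.21 RPKM (SD, n = 3), beside 6.73 ± 3.94 RPKM in HFD.

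Me1, the cytosolic malic enzyme, supplies NADPH for each round of chain building. Me1 stood at 60.8, 74.2 and 67.3 RPKM in the Con livers and at 139, 84.9 and 105 RPKM in the AOS livers. With the high-fat diet the values were 26.9, 58.3 and 56.0 RPKM in HFD, 42.3, 34.8 and 67.9 RPKM in HFD+AOS, 41.6, 40.3 and 39.8 RPKM in Con-FMT and 27.7, 34.8 and 56.2 RPKM in A10-FMT. The diets overlapped only in HFD+AOS replicate 3, which at 67.9 RPKM exceeded Con replicates 1 and 3. The log2 difference was −0.99 ± 0.18 (SE, adjusted p = 0.00244, limma).

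Fasn encodes fatty acid synthase, the enzyme complex that makes palmitate. Fasn stood at 40.5, 72.1 and 57.1 RPKM in the Con livers and at 112, 46.9 and 68.6 RPKM in the AOS livers. The corresponding high-fat values were 19.8, 37.2 and 44.9 RPKM in HFD, 38.9, 22.3 and 52.0 RPKM in HFD+AOS, 29.7, 28.4 and 35.3 RPKM in Con-FMT and 13.7, 27.4 and 50.0 RPKM in A10-FMT. The high-fat livers ranged from 13.7 to 52.0 RPKM and the regular-diet livers from 40.5 to 112 RPKM, so the diets overlapped. The log2 difference was −0.98 ± 0.26 (SE, adjusted p = 0.0213, limma).

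Elovl6 lengthens palmitate to stearate. Elovl6 stood at 7.84, 10.6 and 9.08 RPKM in the Con livers and at 18.6, 8.32 and 12.4 RPKM in the AOS livers. Livers of the high-fat groups held 3.19, 8.27 and 8.15 RPKM in HFD, 6.59, 3.72 and 7.87 RPKM in HFD+AOS, 5.19, 4.92 and 5.4 RPKM in Con-FMT and 2.98, 5.41 and 9.55 RPKM in A10-FMT. AOS replicate 1 was the highest liver for this gene as for Fasn, Scd1, Acaca and Me1. The log2 difference by diet was −0.82 ± 0.22 (SE, adjusted p = 0.0224, limma).

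Mlxipl, which encodes the glucose-responsive factor ChREBP, moved least among the genes that fell. Mlxipl stood at 97.0, 141 and 120.02 RPKM in the Con livers and at 159, 132 and 147 RPKM in the AOS livers. On the high-fat diet its values were 83.0, 98.4 and 89.2 RPKM in HFD, 89.4, 81.4 and 108 RPKM in HFD+AOS, 76.8, 89.0 and 84.5 RPKM in Con-FMT and 134, 103 and 92.2 RPKM in A10-FMT. The diets overlapped: A10-FMT replicate 1 at 134 RPKM was above Con replicates 1 and 3 and AOS replicate 2, and HFD replicate 2, HFD+AOS replicate 3 and A10-FMT replicate 2 were above Con replicate 1. The log2 difference was −0.49 ± 0.09 (SE, adjusted p = 0.00277, limma).

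Acly, which cuts citrate to acetyl-CoA, and Acaca, the cytosolic acetyl-CoA carboxylase that commits carbon to synthesis, did not pass. Acly stood at 43.1, 92.5 and 66.6 RPKM in the Con livers and at 91.2, 70.5 and 77.4 RPKM in the AOS livers. The high-fat livers held 40.4, 74.8 and 81.2 RPKM in HFD, 55.6, 36.2 and 72.5 RPKM in HFD+AOS, 50.0, 40.5 and 62.6 RPKM in Con-FMT and 28.4, 30.9 and 65.5 RPKM in A10-FMT. The log2 difference by diet was −0.50 ± 0.21 (SE, unadjusted p = 0.0329, adjusted p = 0.141, limma). Acaca stood at 9.66, 10.9 and 10.3 RPKM in the Con livers and at 17.5, 11.6 and 13.1 RPKM in the AOS livers. With the high-fat diet the values were 6.1, 10.1 and 11.4 RPKM in HFD, 9.49, 7.72 and 12.4 RPKM in HFD+AOS, 7.97, 9.02 and 8.81 RPKM in Con-FMT and 6.13, 6.72 and 11.7 RPKM in A10-FMT. For this gene the difference was −0.41 ± 0.14 (SE, unadjusted p = 0.00933, adjusted p = 0.0625, limma). Both genes lay in the same direction as the enzymes that passed, and in both the diets overlapped.

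**Figure D1:**
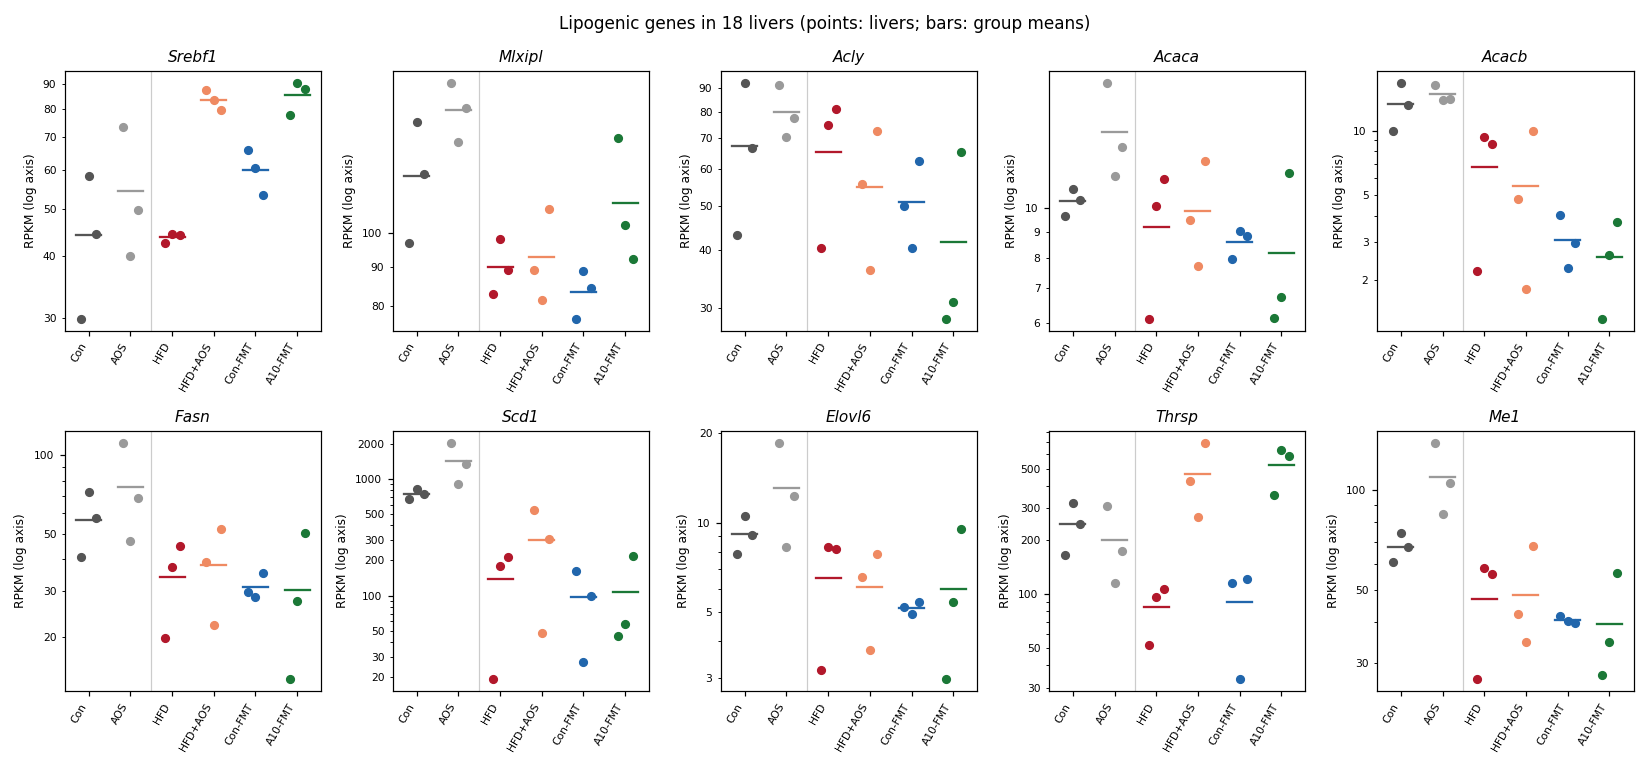
RPKM on a log axis of each of the 10 lipogenic genes in 18 livers, with 1 point per liver, bars at the group means of 3 livers and a grey line between regular-diet and high-fat groups. Scd1 and Acacb lie lower in every high-fat liver than in any regular-diet liver, whereas Srebf1 and Thrsp are highest in HFD+AOS and A10-FMT.

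The diet result rested on pooling. In HFD against Con alone 0 of the 10 genes passed, as did 0.381% of all genes tested; 4 of the 10 and 1623 of all genes had an unadjusted p under 0.05. Those 4 were Scd1 at −3.01 ± 0.94 (SE, adjusted p = 0.155), Thrsp at −1.53 ± 0.49 (adjusted p = 0.161), Mlxipl at −0.39 ± 0.15 (adjusted p = 0.233) and Acacb at −1.03 ± 0.45 (adjusted p = 0.286), all log2 fold changes from limma. HFD replicate 1 was the lowest HFD liver for all 10 genes, and without it the Scd1 and Acacb differences were −1.92 and −0.49. The HFD livers set against both regular-diet groups gave 0 of the 10 genes and 0.181% of all genes, with Scd1 at −3.44 (adjusted p = 0.0839). Without Con replicate 3 and AOS replicate 3, HFD against Con again called 0 of the 10, and the pooled diet comparison kept 4 of the 7 genes, Acacb, Me1, Scd1 and Mlxipl, and 4.47% of all genes. Without HFD+AOS and A10-FMT, 5 of the 10 genes and 3.05% of all genes passed by diet. The clock genes of the groups left out differed most from HFD, as given later. Con-FMT stayed in, although its clock gene Npas2, at 0.67 to 1.83 RPKM, was below the 2.64 to 2.95 RPKM of HFD. Npas2 was still called by diet in this setting, so it does not remove the clock difference. Scd1 was at −3.57 (adjusted p = 0.0111, limma), Acacb at −1.50 (adjusted p = 0.0141) and Me1 at −0.98 (adjusted p = 0.0169). Fasn was at −0.97 (adjusted p = 0.0487, limma) and Mlxipl at −0.59 (adjusted p = 0.00953).

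**Figure D2:**
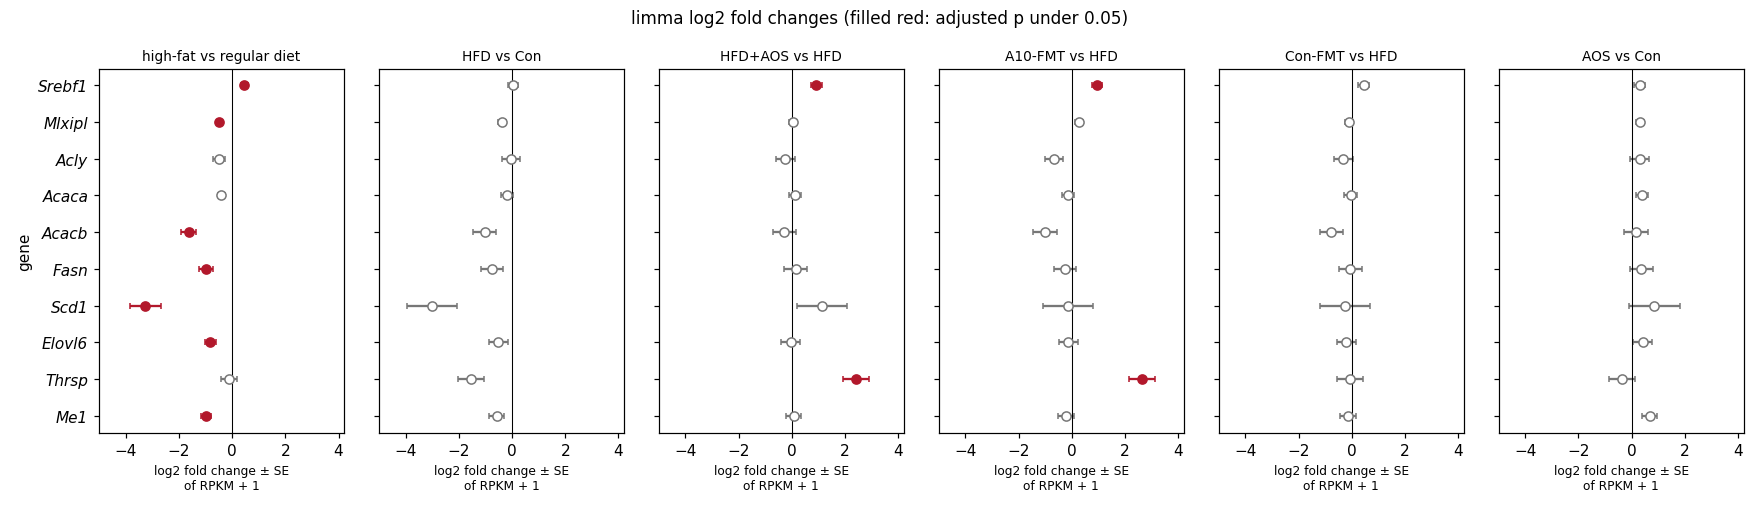
limma log2 fold changes of RPKM + 1, with bars of 1 SE, for the 10 genes in 6 comparisons; filled red points have an adjusted p under 0.05. The enzymes lie below 0 by diet, with Scd1 at −3.26, and only Srebf1 and Thrsp are filled in HFD+AOS vs HFD and A10-FMT vs HFD.

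Srebf1 and Thrsp followed another course than the enzymes. In A10-FMT against HFD 2 of the 10 genes passed, Srebf1 and Thrsp, both higher, where 6.6% of all genes passed and 2.62% were higher. In HFD+AOS against HFD the count was again 2, the same genes and direction, where 8.75% of all genes passed and 4.17% were higher. The HFD livers are common to both comparisons. The other 8 genes differed from HFD by log2 values of −1.0 to 0.27 in A10-FMT and of −0.28 to 1.12 in HFD+AOS, and of these only Acacb in A10-FMT had an unadjusted p under 0.05 (−1.0 ± 0.45 SE, adjusted p = 0.184, limma).

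Thrsp, whose product Spot 14 is induced with lipogenesis by carbohydrate and thyroid hormone, had the largest log2 differences from HFD among the 10 genes. Thrsp stood at 164, 322 and 246 RPKM in the Con livers and at 311, 116 and 173 RPKM in the AOS livers. The corresponding high-fat values were 52.0, 95.8 and 106 RPKM in HFD, 425, 269 and 695 RPKM in HFD+AOS, 115, 33.5 and 121 RPKM in Con-FMT and 355, 635 and 587 RPKM in A10-FMT. All 6 livers of HFD+AOS and A10-FMT were above all 6 of HFD and Con-FMT. The mean of A10-FMT was 6.20 times that of HFD (log2 difference 2.64 ± 0.49 SE, adjusted p = 0.00487, limma) and the mean of HFD+AOS was 5.46 times that of HFD (2.39 ± 0.49, adjusted p = 0.00826). Against Con-FMT the mean of A10-FMT was 5.86 times as high (2.70 ± 0.49, adjusted p = 0.00979), and Thrsp was then the 1 gene of 10 that passed, where 1.68% of all genes did.

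Srebf1 encodes the precursor of SREBP-1, which is cut and enters the nucleus to switch on the enzyme genes, so its transcript is not a measure of its activity. Srebf1 stood at 29.9, 58.3 and 44.4 RPKM in the Con livers and at 73.5, 40.1 and 49.8 RPKM in the AOS livers. Livers of the high-fat groups held 42.6, 44.4 and 44.3 RPKM in HFD, 87.3, 83.4 and 79.6 RPKM in HFD+AOS, 66.0, 60.7 and 53.4 RPKM in Con-FMT and 77.7, 90.4 and 87.6 RPKM in A10-FMT. The HFD livers were close to each other and below every liver of HFD+AOS, Con-FMT and A10-FMT. A10-FMT stood above HFD by a log2 difference of 0.94 ± 0.20 (SE, adjusted p = 0.0119, limma), and HFD+AOS by 0.92 ± 0.20 (adjusted p = 0.0136). Con-FMT against HFD was 0.44 ± 0.20 (unadjusted p = 0.0442, adjusted p = 0.741, limma), and A10-FMT against Con-FMT was 0.50 ± 0.20 (adjusted p = 0.229). Neither passed, although the livers did not overlap in either comparison. Mlxipl livers did not overlap in A10-FMT against Con-FMT, again without a call (0.37 ± 0.15, adjusted p = 0.223, limma). The share of all tested genes that separate in this way was not counted, so non-overlap is description only. By diet Srebf1 rose by 0.46 ± 0.12 (adjusted p = 0.0231), but this was 0.11 (adjusted p = 0.741) without HFD+AOS and A10-FMT, and −0.12 (adjusted p = 0.842) with HFD as the only high-fat group.

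Con-FMT against HFD called 0 of the 10 genes with limma and 0.00952% of all genes, which is 1 gene; 1 of the 10 and 697 of all genes had an unadjusted p under 0.05. Apart from Srebf1 the log2 differences were −0.76 to −0.05, and the SE of a difference was 0.15 for Mlxipl and 0.94 for Scd1.

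AOS on the regular diet called 0 of the 10 genes with limma and 0.133% of all genes, and 1633 of all genes had an unadjusted p under 0.05. Their median log2 difference was 0.33, beside 0.07 for all genes tested, with values from −0.35 (Thrsp) to 0.85 (Scd1). Me1 had the only unadjusted p under 0.05, at 0.67 ± 0.30 (SE, unadjusted p = 0.0388, adjusted p = 0.294, limma). Without the third Con and AOS livers AOS against Con called 0 of the 10 and 0.0% of all genes, of which 920 had an unadjusted p under 0.05. AOS replicate 1 was the highest AOS liver for all 10 genes. The effect of AOS was then compared between the diets, as HFD+AOS minus HFD less AOS minus Con, which called 0 of the 10 with limma and 0.504% of all genes; 2 of the 10 and 1541 of all genes had an unadjusted p under 0.05. Thrsp came nearest, with a difference of 2.75 ± 0.69 (SE, unadjusted p = 0.00112, adjusted p = 0.0927, limma), and an adjusted p of 0.387 without the third Con and AOS livers. A test for any difference among the 6 groups passed 6 of the 10 genes, Acacb, Srebf1, Me1, Scd1, Thrsp and Mlxipl, beside 14.8% of all genes. Without the third Con and AOS livers it passed 2, Srebf1 and Thrsp, beside 4.98%.

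The enzymes varied together from liver to liver. Over 18 livers, which share group differences and diet, the gene most like Fasn among all 10507 tested was Elovl6 (Pearson r = 0.97 of log2 values), followed by Me1 (0.94) and Acaca (0.93). Acacb ranked 9, Acly 12 and Scd1 13, among other genes that included Ugt1a5, Acss2 and Chrna4. After removal of the group means Elovl6, Acaca and Me1 were again the first 3, with r of 0.97, 0.92 and 0.92. Mlxipl ranked 728 (r = 0.55, and 0.16 after removal of group means). Thrsp ranked 3960 and Srebf1 8176 over all livers, with r of 0.24 and −0.13, but their deviations from group means correlated with those of Fasn at 0.75 and 0.54. The genes most like Thrsp were Mrpl58, Cd276 and Klf13, with r of 0.82, 0.81 and 0.81. These correlations describe 18 livers that share groups and diets and carry no test.

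Ratios to Fasn within a liver show which genes kept step with the synthase. Elovl6 was 0.147 to 0.222 times Fasn in every liver, and Me1 was 1.03 to 2.01 times Fasn. Thrsp was 2.37 to 2.63 times Fasn in HFD, 2.46 to 2.78 times in AOS and 4.04 to 4.47 times in Con. In HFD+AOS the same ratio was 10.9 to 13.4 and in A10-FMT 11.7 to 25.8, above all other groups, and within each of Con, AOS, HFD and HFD+AOS it changed little while Fasn itself varied. Scd1 was 11.3 to 16.7 times Fasn in Con and 18.2 to 19.4 times in AOS. In the high-fat groups the Scd1 ratio was below 6 in every liver but HFD+AOS replicate 1, where it reached 13.8.

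Each of the 9 ratios was compared between the 12 high-fat and 6 regular-diet livers by a two-sided exact permutation test over 18564 splits, with Benjamini-Hochberg adjustment over the 9; the ratios were chosen after the values were seen, and the test ignores the groups within a diet. Relative to Fasn, Scd1 fell by 2.27 on the log2 scale on the high-fat diet (exact p = 0.000323, adjusted p = 0.00145) and Acacb by 0.92 (exact p = 0.00393, adjusted p = 0.00708). Acly, Acaca and Srebf1 rose relative to Fasn, by 0.50 (exact adjusted p = 0.00703), 0.55 (0.00242) and 1.48 (0.00145). For Elovl6 the difference was 0.07 (exact adjusted p = 0.447) and for Me1 −0.01 (0.970), while Mlxipl at 0.51 (0.132) and Thrsp at 0.90 (0.207) did not pass. Without the third Con and AOS livers the same 5 ratios passed, with exact adjusted p of 0.00742 for Scd1 and Srebf1 and 0.0227 for Acly, Acaca and Acacb. In HFD alone the Srebf1 ratio, 0.986 to 2.15, did not overlap that of Con, 0.737 to 0.808. The Scd1, Acly and Acaca ratios of HFD did not overlap those of Con either. The Acacb ratio did overlap, at 0.1116 to 0.2517 in HFD and 0.2298 to 0.2455 in Con. In Con-FMT and A10-FMT the Acacb ratio reached at most 0.136 and 0.0961. These ranges within single groups were not tested.

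**Figure D3:**
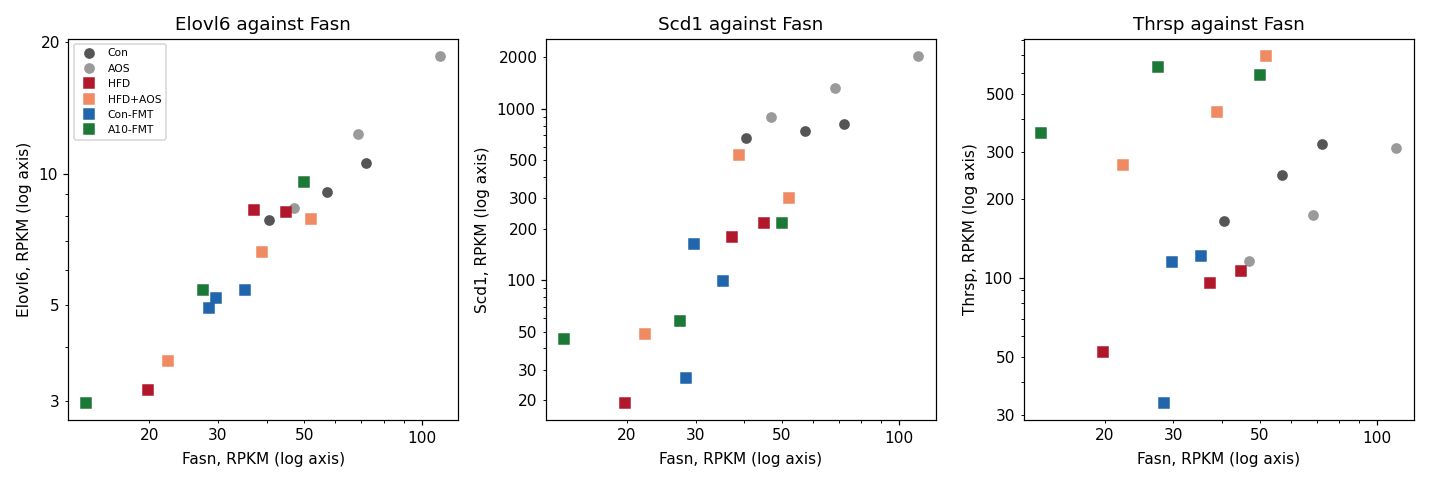
RPKM of Elovl6, Scd1 and Thrsp against RPKM of Fasn in the same liver, both on log axes, with 1 point for each of 18 livers, circles for regular-diet and squares for high-fat groups. Elovl6 follows Fasn in all groups, Scd1 drops more steeply in high-fat livers, and Thrsp in HFD+AOS and A10-FMT lies above the other livers of like Fasn level.

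The genes around the pathway were read from lists. Among 6 suppliers of NADPH through the pentose phosphate route and isocitrate dehydrogenase, 3 fell by diet and 0 rose, where 12.9% of all genes were called. These were Pgd (log2 difference −0.55 ± 0.11 SE, adjusted p = 0.00392, limma), Tkt (−0.49 ± 0.10, adjusted p = 0.00408) and G6pdx (−0.68 ± 0.14, adjusted p = 0.00462). G6pdx was not lower in HFD, at 1.19, 1.91 and 4.3 RPKM with a mean of 2.47, beside a mean of 2.41 RPKM in Con. It was low in the other high-fat groups, at 0.9 to 1.72 RPKM, near the 1 RPKM used as the limit for testing. Of 8 suppliers of citrate and acetyl-CoA, 2 fell by diet against 5.74% of all genes, Acss2, which makes acetyl-CoA from acetate (−1.04 ± 0.27, adjusted p = 0.0183), and the citrate synthase gene Cs (−0.23 ± 0.06, adjusted p = 0.0225). Of 7 tested genes that act on acetyl-CoA carboxylase through phosphorylation or binding, or remove its product malonyl-CoA (Mlycd), 0 were called in this or any other comparison. In each of the other comparisons between groups the NADPH and citrate lists held 0 called genes. By diet without the third Con and AOS livers the NADPH list kept all 3 and the citrate list held 0 called genes, beside 4.47% of all genes. The counts without HFD+AOS and A10-FMT were 2 (Pgd and Tkt) and 0, beside 3.05%.

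Of 12 other lipid genes that respond to insulin and SREBP-1c, 3 were called by diet, where 12.9% of all genes were. Pnpla3, a lipid droplet protein gene known as an SREBP-1c target, fell (−0.97 ± 0.19, adjusted p = 0.00334, limma), as did Agpat2 of glycerolipid synthesis (−0.29 ± 0.08, adjusted p = 0.0270). Pnpla3 stood at 0.56 to 1.77 RPKM in Con, 1.74 to 4.33 RPKM in AOS and 0.07 to 1.59 RPKM in the high-fat groups. These values are near the 1 RPKM limit for testing, which the gene passed mainly through the regular-diet livers. Dgat2, which completes triglyceride, rose by 0.38 ± 0.08 (adjusted p = 0.00405), but this was 0.11 (adjusted p = 0.498) without HFD+AOS and A10-FMT, and 0.04 (adjusted p = 0.899) in HFD against Con. Pnpla3 and Dgat2 were called without the third Con and AOS livers, and Pnpla3 alone of this list without HFD+AOS and A10-FMT. Dgat2 was also the 1 gene of this list called against HFD in A10-FMT, where it was higher by 0.71 ± 0.12 (adjusted p = 0.00284), and in HFD+AOS, higher by 0.70 ± 0.12 (adjusted p = 0.00331). Its livers stood at 165, 125 and 151 RPKM in HFD, 233, 231 and 248 RPKM in HFD+AOS and 234, 275 and 215 RPKM in A10-FMT. The Con-FMT livers lay between, at 189, 180 and 188 RPKM, and Dgat2 was not called against HFD there.

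Of 12 genes of sterol and LXR control of Srebf1, 3 were called in A10-FMT against HFD, where 6.6% of all genes were, and 2 in HFD+AOS against HFD, where 8.75% were. Insig2, whose product holds the SREBP precursor in the endoplasmic reticulum, was lower in both, with log2 differences of −1.54 ± 0.32 (adjusted p = 0.0106, limma) and −1.15 ± 0.32 (adjusted p = 0.0388). Its values were 154, 154 and 137 RPKM in HFD, 69.0, 64.4 and 64.7 RPKM in HFD+AOS and 35.7, 30.7 and 115 RPKM in A10-FMT, where replicate 3 stood apart from the other livers of its group. Usf2, an E-box-binding factor, was higher in both, by 0.37 ± 0.09 (adjusted p = 0.0247) and 0.43 ± 0.09 (adjusted p = 0.0117). Srebf2, the cholesterol-directed relative of Srebf1, was lower in A10-FMT than in HFD (−0.64 ± 0.14, adjusted p = 0.0129) and was the 1 gene of the list called in A10-FMT against Con-FMT, where 1.68% of all genes were. With the spread estimated without the third Con and AOS livers, Insig2 and Srebf2 were called in A10-FMT against HFD, Usf2 in HFD+AOS against HFD and 0 of the list in A10-FMT against Con-FMT. By diet 3 of the 12 were called, beside 12.9% of all genes: Insig2 fell (−0.68 ± 0.20, adjusted p = 0.0347), and Rxra (0.20 ± 0.05, adjusted p = 0.0158) and Ppargc1b (0.33 ± 0.10, adjusted p = 0.0361) rose. For Insig2 the difference was −0.07 (adjusted p = 0.714) without HFD+AOS and A10-FMT, and 0.15 (adjusted p = 0.859) in HFD against Con. The diet count of this list was 0 without the third Con and AOS livers and 0 without HFD+AOS and A10-FMT.

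Of 10 genes of the carbohydrate response, 1 passed by diet, beside 12.9% of all genes, the glucose transporter gene Slc2a2 (0.40 ± 0.12, adjusted p = 0.0356, limma). In HFD+AOS against HFD 2 passed, beside 8.75% of all genes, Gckr (0.44 ± 0.12, adjusted p = 0.0384), and the glucose 6-phosphatase gene G6pc (−1.58 ± 0.35, adjusted p = 0.0137). Pklr, a known ChREBP target, passed in neither of these. Of 11 genes of the insulin signal, 2 were called by diet, again beside 12.9%. Mtor and Foxo1 rose, by 0.20 ± 0.05 (adjusted p = 0.0122) and 0.19 ± 0.05 (adjusted p = 0.0227), and 0 of 11 passed in A10-FMT or HFD+AOS against HFD. Without the third Con and AOS livers both lists held 0 genes called by diet and G6pc was the 1 carbohydrate gene called in HFD+AOS against HFD, while without HFD+AOS and A10-FMT only Mtor was called by diet.

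Clock and fasting genes moved with the groups in which Srebf1 and Thrsp were high. Of 8 clock genes, 7 were called in A10-FMT against HFD and 7 in HFD+AOS against HFD, where 6.6% and 8.75% of all genes were, with Dbp, Per3 and Tef higher and Arntl, Npas2 and Clock lower in both. Dbp and Per3 were below the 1 RPKM limit for testing in every HFD liver, and Npas2 in every HFD+AOS and A10-FMT liver. Those genes thus entered the test through groups in which they were higher. Dbp, an output gene of the clock, stood at 0.66, 0.58 and 0.68 RPKM in Con, 3.41, 0.36 and 1.78 RPKM in AOS and 0.56, 0.27 and 0.59 RPKM in HFD. The same gene was at 112, 88.9 and 97.8 RPKM in HFD+AOS, 16.5, 3.24 and 22.6 RPKM in Con-FMT and 127, 70.8 and 49.2 RPKM in A10-FMT. Arntl, whose product drives the clock in the opposite phase, was at 12.1, 14.6 and 13.2 RPKM in HFD, 1.18, 1.23 and 1.32 RPKM in HFD+AOS, 8.02, 12.97 and 6.94 RPKM in Con-FMT and 0.79, 0.69 and 2.41 RPKM in A10-FMT. In HFD against Con, AOS against Con and Con-FMT against HFD 0 of 8 clock genes were called, beside 0.381%, 0.133% and 0.00952% of all genes. The count was 6 in A10-FMT against Con-FMT, beside 1.68%, and 6 in the difference of the AOS effect between diets, beside 0.504%. By diet all 8 were called, beside 12.9%. The diet count was 5 without the third Con and AOS livers, beside 4.47%, and 1 (Npas2) without HFD+AOS and A10-FMT, beside 3.05%. The labels used here give no time of day for the livers, and the part of clock genes in the Srebf1 and Thrsp results was not tested.

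Of 8 tested fasting genes, 3 were called in A10-FMT against HFD, all lower, where 6.6% of all genes were called and 3.98% were lower. These were Pdk4 (−1.34 ± 0.23, adjusted p = 0.00293, limma), Fgf21 (−1.25 ± 0.25, adjusted p = 0.00809) and Igfbp1 (−2.51 ± 0.61, adjusted p = 0.0233). In HFD+AOS against HFD, Pdk4 (−1.13 ± 0.23, adjusted p = 0.00826, limma), G6pc and Igfbp1 (−2.14 ± 0.61, adjusted p = 0.0414) were lower and Cpt1a was higher. That made 4 of the 8 called, beside 8.75% of all genes. Pdk4, which shuts carbohydrate out of the mitochondria, stood at 2.18, 3.64 and 3.65 RPKM in HFD, 1.17, 0.61 and 0.86 RPKM in HFD+AOS and 0.38, 0.27 and 1.43 RPKM in A10-FMT. The Con-FMT livers held 1.47, 1.88 and 0.84 RPKM of Pdk4, also below the HFD livers, although it was not called there. In HFD against Con, where the clock genes did not pass, Fgf21 (1.44 ± 0.25, adjusted p = 0.0283, limma) and Angptl4 (0.90 ± 0.14, adjusted p = 0.0240) rose, beside 0.381% of all genes called. Angptl4 was called in AOS against Con as well, beside 0.133%. By diet 7 of the 8 fasting genes were called, 5 of them higher, beside 12.9% of all genes. Without the third Con and AOS livers 0 genes of the whole table were called in HFD against Con or AOS against Con, so that these calls were lost: in HFD against Con Fgf21 was then at 1.47 (adjusted p = 0.205, limma) and Angptl4 at 0.91 (adjusted p = 0.194), and 1076 genes had an unadjusted p under 0.05. The diet count of fasting genes was then 3, beside 4.47% of all genes, and it was 3 without HFD+AOS and A10-FMT, beside 3.05%. Igfbp1 was called in neither A10-FMT nor HFD+AOS against HFD without the third Con and AOS livers. The part of feeding state in the enzyme results was not tested.

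The adipocyte genes were highest in 1 liver, A10-FMT replicate 1, and smaller amounts were in A10-FMT replicate 2. In replicate 2 Cfd stood at 1.34 RPKM and Adipoq at 0.39 RPKM, while livers of the other groups reached at most 0.32 and 0.11 RPKM. Replicate 2 also had the highest Thrsp and Srebf1 of its group, 635 and 90.4 RPKM. A10-FMT replicate 1, with the highest adipocyte sum, had the lowest Thrsp of its group, 355 RPKM, and the lowest Fasn and Acacb of all 18 livers. Without replicate 1 Thrsp in A10-FMT against HFD was 2.90 (adjusted p = 0.0107, limma) and Srebf1 was 1.01 (adjusted p = 0.0309). Without replicate 2 Thrsp still passed there and Srebf1 did not (adjusted p = 0.0562, limma). The part of adipose tissue in these results was not tested.

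**Figure D4:**
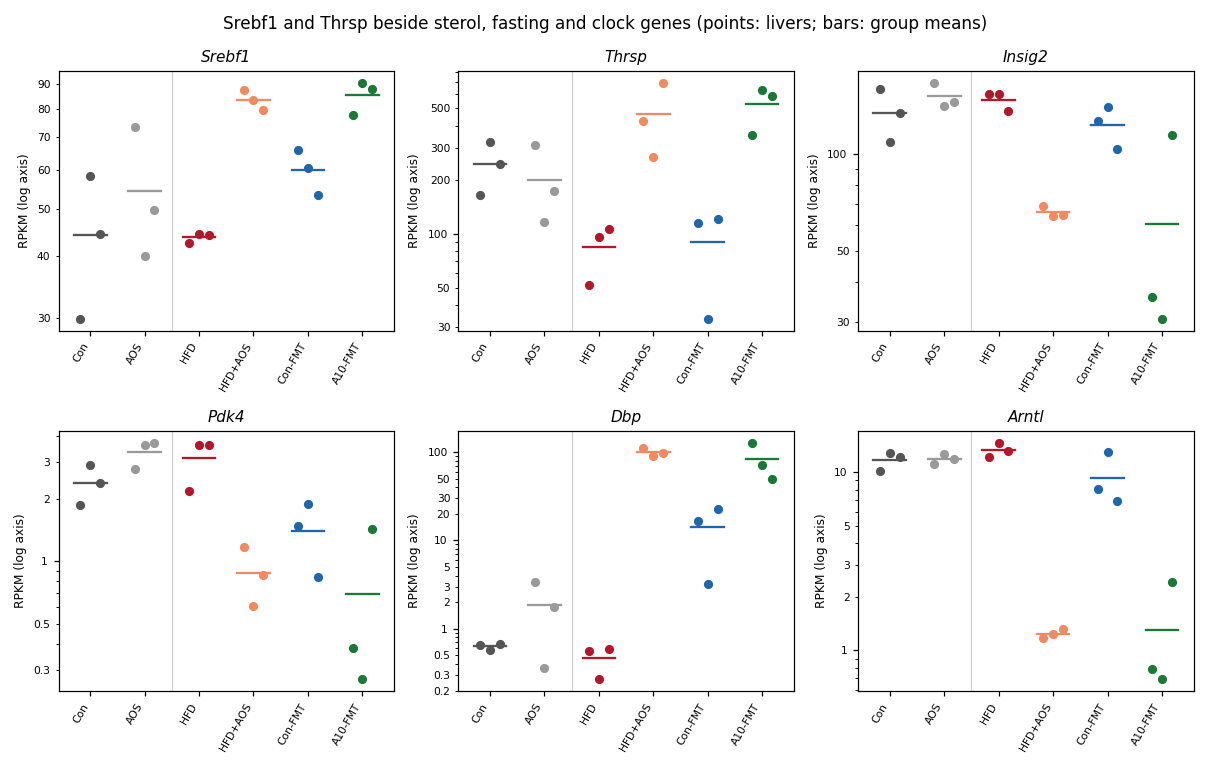
RPKM on log axes of Srebf1 and Thrsp beside Insig2, Pdk4, Dbp and Arntl in 18 livers, with 1 point per liver and bars at the group means of 3 livers. Srebf1, Thrsp and Dbp are high and Insig2, Pdk4 and Arntl low in HFD+AOS and A10-FMT, apart from Insig2 at 115 RPKM in A10-FMT replicate 3. Pdk4 is below HFD in Con-FMT as well, at 0.84 to 1.88 RPKM, which overlaps HFD+AOS and, through replicate 3 at 1.43 RPKM, A10-FMT.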

How the data were processed

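The deposited values are RPKM per gene and liver, 1 table for all 18 libraries. Per the study's methods the authors aligned reads with SOAPaligner 2.20 and reported every hit of a read, so near-identical genes can share reads. The submitters' processing notes name Bowtie 0.12.2 and mm10. The annotation, the strand setting and the read depth are not given in the sources used here.

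Genes with at least 1 RPKM in at least 3 libraries were tested (10507 of 19057) with limma 3.58.1 in R 4.3.3 on log2(RPKM + 1), two-sided, with 1 mean per group over all 18 livers, an intensity trend and Benjamini-Hochberg adjustment over all genes tested. A gene was called at an adjusted p under 0.05. Fold changes on this scale understate changes of low genes. The members and lists were chosen with earlier results of these data known. All 10 members are given in every liver, fold changes are printed where the unadjusted p was under 0.05 or as a range, and called list genes are named up to 4 per list and comparison, by smallest p. Diet comparisons without HFD+AOS and A10-FMT, or with HFD alone, and list counts without the third Con and AOS livers, were added after seeing the data. Sequences are from RefSeq promoter tables (GRCm38.p6) and gene positions from GENCODE M21.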

Additional observations from a re-analysis of the deposited data

How the results depend on the processing

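Of 427 alternatives to 25 fold changes of the lipogenic genes, 395 kept direction and side of the threshold, 25 lost the call, 6 gained one and 1 reversed. The reversal was Srebf1 by diet with HFD livers as the only high-fat group (−0.12 on the log2 scale), a setting that also called 0 of the 10 genes by diet. Leaving out the third Con and AOS livers gave 4 genes by diet and 2 in the test of any group difference. A10-FMT against Con-FMT called 0 genes with only the groups compared in the fit. Leaving out 1 liver at a time gave 1 to 3 genes in A10-FMT against HFD, where Srebf1 was lost without A10-FMT replicate 2 and Acacb was gained without HFD replicate 1. The same range was 0 to 1 in A10-FMT against Con-FMT, where Thrsp was lost without A10-FMT replicate 2 or Con-FMT replicate 2, and 1 to 2 in HFD+AOS against HFD, where Srebf1 was lost without HFD+AOS replicate 1. It was 5 to 8 by diet and in the test of any group difference. By diet, Fasn was not called without AOS replicate 1 or Con replicate 2 or 3, Elovl6 without AOS replicate 1 or 3 or Con replicate 3, and Srebf1 without AOS replicate 2 or 3 or Con replicate 1. The causes were not tested. With the replicate number as a block, 8 of the 10 genes were called by diet, Acaca being added, and 5 genes of the whole table in HFD against Con in place of 40. Correlations of same-numbered livers, taken as deviations from group means, ran from −0.18 to 0.23, so no pairing by number was seen. Deviations from means of 3 livers cannot show that pairing was absent. With library medians made equal, A10-FMT against HFD called 1084 genes, 609 of them higher, in place of 693 with 275 higher; Srebf1, Acacb and Thrsp kept their direction there, and Srebf1 in HFD against Con went from 0.04 to −0.02. Read depth was not given, which limits what can be said of low genes such as Acacb.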
